A study of Mus musculus with 2 samples.

Results

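Heat shock proteins and molecular chaperones were described in 2 RNA sequencing libraries of mouse embryonic heart. The genes were chosen by name, by a rule that does not use their levels, though earlier results of these data were known. It takes every protein-coding row whose symbol belongs to the HSP90, HSP70, HSP110, small heat shock protein or HSP60 and HSP10 families. The CCT, J-domain (Dnaja, Dnajb, Dnajc), BAG and UNC45 families and Cryab are taken too. The rule took 89 gene rows with 88 symbols, out of 22240 protein-coding symbols and 34236 symbols of every type. Hspa14 has 2 overlapping rows, and they were summed. Both libraries, replicate 1 and replicate 2, were made from hearts at embryonic day 12.5 on a mixed C57BL/6 x 129S6 background with no treatment, and they form 1 group. The series therefore gives levels and the spread between libraries, and no contrast of conditions. The labels do not say whether separate embryos, litters or pools were used, so that spread may be technical.

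Levels are given as FPKM, a fragment count corrected for transcript length and for the library's number of mapped fragments, and may be compared between genes. Where a pair of values is given, the first is replicate 1 and the second replicate 2, and values after ± are SD with n = 2. Summed FPKM was 388230 and 382561. Absolute depth is unknown, and genes under 0.1 FPKM put 1 fragment at 1.33 times the value in replicate 2 that it has in replicate 1, so replicate 1 was the deeper library. The heart label was checked against markers: all 5 cardiomyocyte markers exceeded 1 FPKM in both libraries (Actc1 at 4383 and 4244 FPKM), as did all 4 markers each of endothelium, epicardium, mesenchyme and red cells. All 3 macrophage markers and 1 of 2 neuron markers did so too. Of the 3 hepatocyte, 2 lung, 3 skeletal muscle and 2 testis germ cell markers none reached 1 FPKM in both, and the lens genes Cryaa and Crygs were listed at 0. The RNA came from heart tissue of mixed cell types, so a low level can mean few cells of a type or little RNA per cell, which cannot be told apart here.

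Chaperones bind unfolded or partly folded proteins and let them reach their native state. HSP70 proteins hold short stretches of a client in a cycle of ATP hydrolysis, J-domain proteins deliver clients and trigger hydrolysis, and BAG and HSP110 proteins release the nucleotide. HSP90 acts later, on kinases, receptors and other near-native clients. The ring-shaped chaperonins, CCT in the cytosol and HSP60 with HSP10 in mitochondria, fold proteins inside a closed chamber, and small heat shock proteins hold clients without using ATP. Muscle relies on them heavily: CCT folds actin and tubulin, UNC45B and HSP90 fold the myosin motor, and CRYAB and HSPB proteins attend desmin, titin and filamin.

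The heart RNA held most of the family at well above detection. Of the 88 genes, 79 reached 1 FPKM in both libraries (89.8%), against 52.4% of all protein-coding symbols. A mean of 10 FPKM or more was reached by 56 genes, against 27.6% of protein-coding symbols, and a mean of 100 FPKM or more by 17, against 2.18%. The median level was 18.02 and 17.8 FPKM, beside 1.66 and 1.66 FPKM over all protein-coding symbols. Together the genes made up 1.40% and 1.36% of all FPKM.

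**Figure D1:**
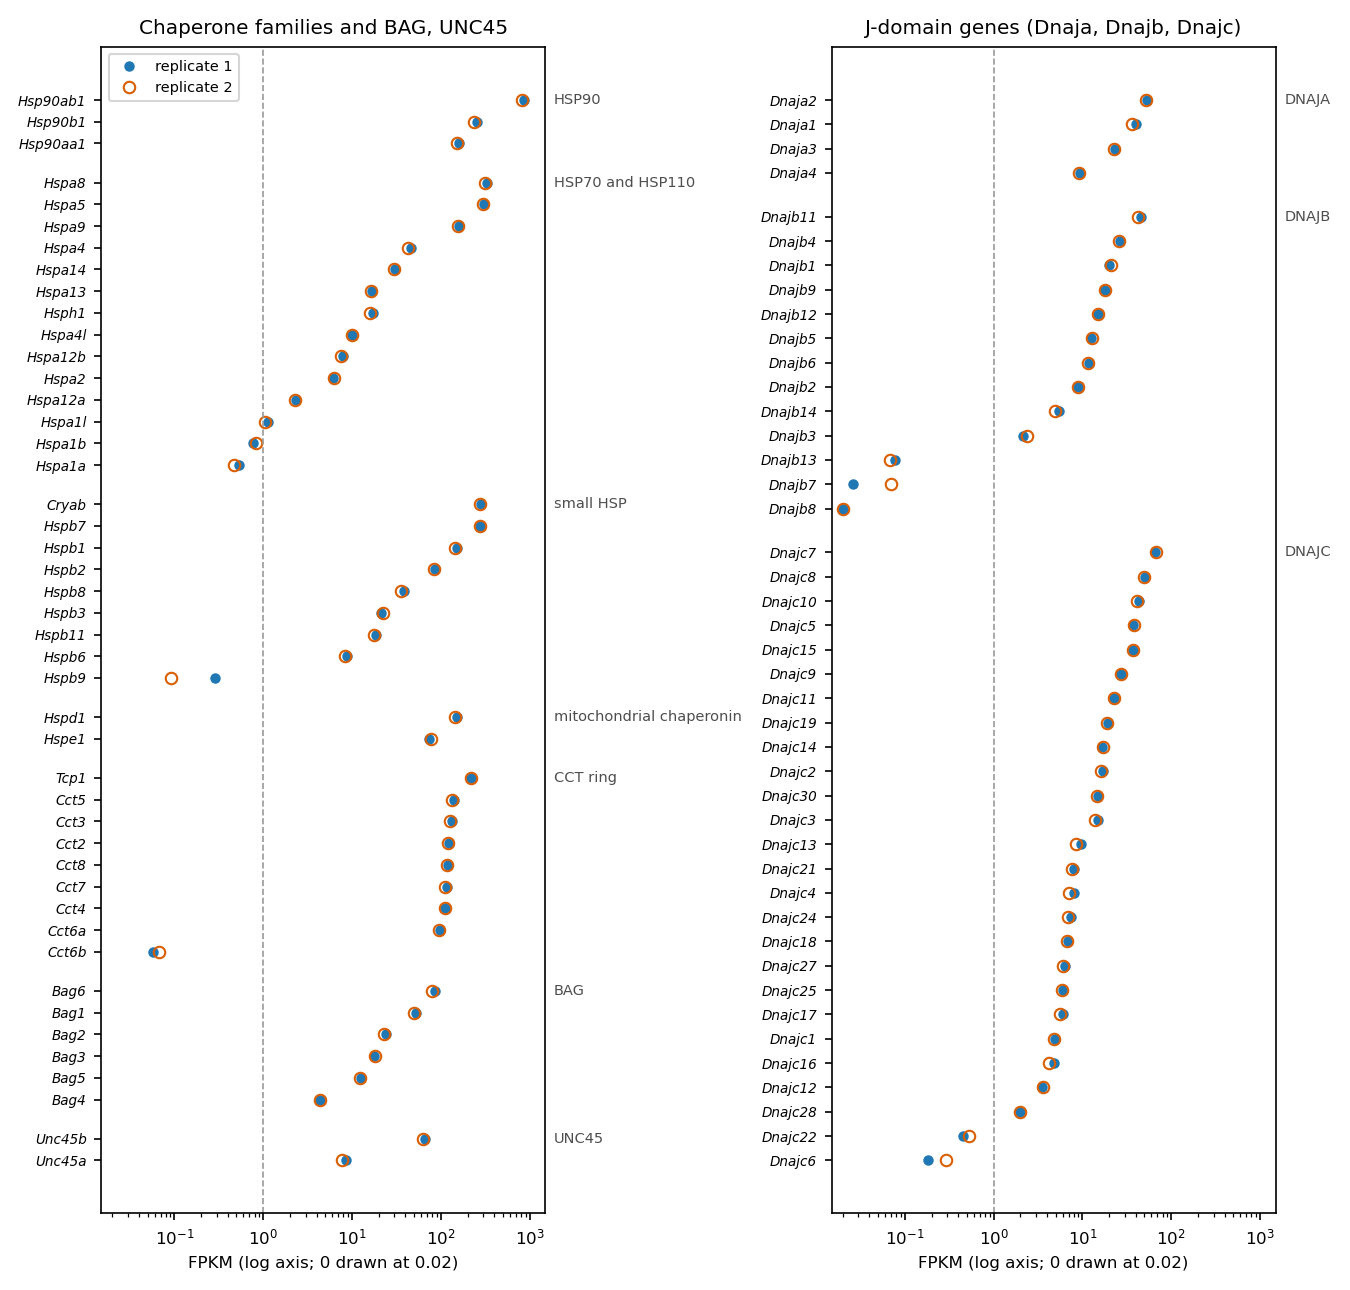
FPKM of each of the 88 genes on a log axis, in replicate 1 (filled) and replicate 2 (open), ordered by level within each class; the dashed line marks 1 FPKM and Dnajb8, listed at 0, is drawn at 0.02. Hsp90ab1 stands alone at the top, the CCT genes other than Tcp1 and Cct6b lie close together, and the 9 genes left of the line include Hspa1a, Hspa1b and Cct6b.

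Much of that total came from few genes. The 5 highest (Hsp90ab1, Hspa8, Hspa5, Cryab and Hspb7) held 38.3% and 38.2% of it, and the 10 highest 55.8% and 55.5%. Such a skew is not particular to these genes. The 484 protein-coding symbols with a mean of 100 FPKM or more, 2.18% of such symbols, held 49.0% and 49.4% of all FPKM. By class, the 3 HSP90 genes summed to 1282 and 1213 FPKM and the 9 CCT genes to 1067 and 1037 FPKM. The 14 HSP70 and HSP110 genes reached 945 and 895 FPKM and the 9 small heat shock protein genes 884 and 864 FPKM. The 43 J-domain genes, the most numerous class, summed to 735 and 715 FPKM, below the 14 HSP70 and HSP110 genes in both libraries.

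**Figure D2:**
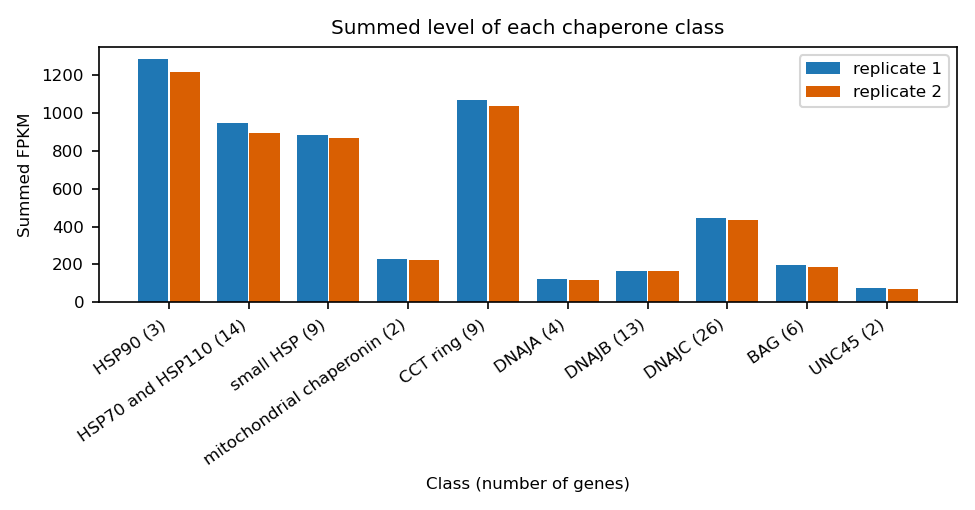
Summed FPKM of each class in replicate 1 (blue) and replicate 2 (orange), with the number of genes in parentheses; the linear axis starts at 0. HSP90 and the CCT ring were the highest sums in both libraries, and each bar pair differs by little.

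In the ranking by mean level, both values of each of the first 7 genes, from Hsp90ab1 to Tcp1, lay above both values of the next. From Hspa9 through Hsp90aa1 and Hspd1 to Hspb1 each gene overlapped the next. Such overlap does not use the pairing of values within a library. Hspa9 and Hsp90aa1 changed places between the libraries, so their order is not resolved. Hsp90aa1, Hspd1 and Hspb1 kept the same order in both. Among the 20 highest genes 8 of 19 neighbouring pairs overlapped, and over all 88 genes 42 of 87.

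Hsp90ab1, the constitutive cytosolic HSP90, was the highest chaperone transcript at 868 and 826 FPKM (847 ± 29.3), place 30 among all protein-coding symbols (chromosome 17, 45704724 to 45710220, mm9). The stress-inducible cytosolic form Hsp90aa1 was at 161 and 151 FPKM. The constitutive form exceeded it 5.38 times in replicate 1 and 5.48 times in replicate 2, a log2 ratio of 2.43 ± 0.02. To judge such ratios, the 95th percentile of differences of single protein-coding genes between the libraries was taken in the same range of level. It is 0.17 on the log2 scale for genes at 100 FPKM or more, far below this ratio. It covers only the spread between libraries: Hsp90aa1 shares 68.7% of its longest coding transcript with pseudogenes at 98% identity or more, which were listed at 2.12 and 3.05 FPKM (Gm12346) and at 0.796 and 1.16 FPKM (Gm5844). Their part in the Hsp90aa1 level was not tested. Hsp90b1 (GRP94), the HSP90 of the endoplasmic reticulum, was at 253 and 235 FPKM, above Hsp90aa1 with no overlap.

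The HSP70 class was led by 3 genes for 3 compartments. Hspa8 (HSC70), the constitutive cytosolic HSP70, was at 334 and 311 FPKM. Hspa5 (BiP), its counterpart in the endoplasmic reticulum, was at 311 and 297 FPKM. The log2 ratio of Hspa8 to Hspa5 was 0.09 ± 0.03, inside the 0.17 limit, so these genes were not separated by more than the usual spread of single genes, although Hspa8 was the higher in each library. Hspa9 (mortalin), which pulls proteins into the mitochondrial matrix, stood at 161 and 154 FPKM, and Hspa8 exceeded it 2.07 times in replicate 1 and 2.01 times in replicate 2. Hspa8 shares 84.5% of its longest coding transcript with annotated copies. No level was found for these copies by gene identifier, the only way they were looked up, so the Hspa8 level is uncertain.

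The heat-inducible HSP70 genes stood at the other end of the class. Hspa1a was at 0.531 and 0.473 FPKM and Hspa1b at 0.773 and 0.837 FPKM, neither reaching 1 FPKM, and their neighbour Hspa1l, known from testis, was at 1.12 and 1.04 FPKM. These are the 3 lowest genes of the class in both libraries. Hspa1l shares 72.3% of its transcript with the antisense gene Gm10501, at 0.387 and 0.608 FPKM, and strand was not marked, so its level is uncertain. Hspa1a and Hspa1b are near-identical (Hspa1b shares 78.5% of its transcript with Hspa1a at 98% identity or more), and how reads with several matches were assigned is not given in the sources used here. Their log2 ratio of 0.27 ± 0.08 lay inside the limit of 0.30 that holds for genes of 1 to 5 FPKM, the lowest range for which a limit was set, but reached 0.32 in replicate 2 alone, outside it. The promoters of the pair are shown because they belong to the textbook heat shock genes. In the 200 bases before the RefSeq start (GRCm38.p6) they match at 199 positions, and each holds 1 copy of GAANNTTC, the core read by heat shock factors, in capitals.
Hspa1a (chr17:34972157-34972356, minus strand): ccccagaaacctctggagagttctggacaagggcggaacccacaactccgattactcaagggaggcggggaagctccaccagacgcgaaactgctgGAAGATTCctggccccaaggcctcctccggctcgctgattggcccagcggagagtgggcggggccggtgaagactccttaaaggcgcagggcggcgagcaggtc
Hspa1b (chr17:34959239-34959438, minus strand): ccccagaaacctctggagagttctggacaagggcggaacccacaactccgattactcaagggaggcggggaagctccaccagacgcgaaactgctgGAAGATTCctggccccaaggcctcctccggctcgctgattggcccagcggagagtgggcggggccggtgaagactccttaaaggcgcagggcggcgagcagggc

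The remaining HSP70 genes lay between these extremes. Hspa14, a ribosome-associated HSP70, was at 30.2 and 29.7 FPKM summed over its rows, of which the minor one was at 2.20 and 1.10 FPKM. Hspa13, a microsomal member, was at 16.9 and 16.4 FPKM, Hspa12b, known from endothelium, at 8.004 and 7.54 FPKM, Hspa2 at 6.19 and 6.33 FPKM and Hspa12a at 2.31 and 2.26 FPKM. The HSP110 genes, nucleotide exchange factors for HSP70, were led by Hspa4 at 45.9 and 42.7 FPKM. Its inducible relative Hsph1 was at 17.2 and 15.9 FPKM, and Hspa4l at 10.1 and 10.1 FPKM. Hspa4 exceeded Hsph1 2.67 times in replicate 1 and 2.69 times in replicate 2, while Hspa8 exceeded Hspa4 7.28 times in replicate 1 and 7.28 times in replicate 2.

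Chaperones of the endoplasmic reticulum formed a graded group. After Hspa5 and Hsp90b1 came the J-domain genes Dnajb11 (ERdj3) at 45.5 and 42.7 FPKM and Dnajc10 (ERdj5), a disulfide reductase, at 43.96 and 41.2 FPKM. Dnajb9 (ERdj4) was at 18.1 and 17.8 FPKM, Dnajc3 (P58IPK) at 14.9 and 13.9 FPKM and Dnajc1 (ERdj1) at 4.86 and 4.79 FPKM. All 8 genes assigned to this compartment, Hspa13 included, were lower in replicate 2. So were 72% of protein-coding symbols at a mean of 5 FPKM or more, a mean that Dnajc1 did not reach. The genes were assigned after the values were seen, so the count depends on that choice and is not a result about the compartment. The 8 genes summed to 708 and 669 FPKM, of which Hspa5 and Hsp90b1 were the bulk. Hsp90b1 stood below Hspa5 at a log2 ratio of -0.32 ± 0.03, outside the 0.17 limit.

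Of the 72 genes with a RefSeq promoter, 3 held CCAAT followed, after 9 bases, by CCACG, the endoplasmic reticulum stress element in its strict form, and all 3 belong to this group. The share is 4.17% of these genes, against 0.137% of all 27025 symbols in the promoter table. Their levels nonetheless spanned 304 FPKM for Hspa5, 244 for Hsp90b1 and 14.4 for Dnajc3. The bases just before each start are given, with the element in capitals on either strand. Hsp90b1 has 2 copies in opposite orientation, the other genes 1.
Hspa5 (chr2:34771890-34772089, plus strand): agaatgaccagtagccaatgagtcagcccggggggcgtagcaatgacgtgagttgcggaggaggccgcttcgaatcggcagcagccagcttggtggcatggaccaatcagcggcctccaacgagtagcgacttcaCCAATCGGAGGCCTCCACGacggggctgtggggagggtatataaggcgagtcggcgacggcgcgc
Hsp90b1 (chr10:86705445-86705659, minus strand): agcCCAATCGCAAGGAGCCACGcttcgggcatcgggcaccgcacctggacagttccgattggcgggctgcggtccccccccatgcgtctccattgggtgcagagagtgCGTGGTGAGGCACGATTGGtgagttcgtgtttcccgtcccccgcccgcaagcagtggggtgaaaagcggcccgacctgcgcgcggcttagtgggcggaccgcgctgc
Dnajc3 (chr14:118937732-118937931, plus strand): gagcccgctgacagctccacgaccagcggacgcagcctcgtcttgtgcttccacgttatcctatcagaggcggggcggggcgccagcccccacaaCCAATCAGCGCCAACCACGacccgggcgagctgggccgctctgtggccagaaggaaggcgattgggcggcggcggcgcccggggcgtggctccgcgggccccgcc

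The mitochondrial chaperonin is made of HSP60 barrels, encoded by Hspd1, and HSP10 lids, encoded by Hspe1. Hspd1 was at 154 and 145 FPKM and Hspe1 at 74.4 and 77.3 FPKM. Hspd1 exceeded Hspe1 2.07 times in replicate 1 and 1.87 times in replicate 2 (log2 ratio 0.97 ± 0.10), and the genes moved in opposite directions between the libraries, Hspd1 being lower and Hspe1 higher in replicate 2. Each gene's difference between the libraries stayed inside the 95th percentile for their levels. Copies bear on both: 71.1% of the Hspd1 transcript and 81.0% of the Hspe1 transcript are shared with other annotated genes at 98% identity or more, and a pseudogene of Hspd1, Hspd1-ps3, was listed at 5.23 and 7.87 FPKM. The genes lie head to head on chromosome 1, with 112 bases of overlap in the mm9 positions of the files. RefSeq gives Hspe1 1 start and Hspd1 2 starts, and 215 bases separate the Hspe1 start from the Hspd1 start behind it. The other Hspd1 start lies on the far side of the Hspe1 start, so the stretch is within the Hspd1 gene as read from there. It is shown because it lies before the Hspe1 start and before 1 of the 2 Hspd1 starts. Its capitals mark 2 overlapping copies of the longer heat shock element, GAANNTTC followed after 2 bases by GAA, in opposite orientation.
Hspe1 and Hspd1 (chr1:55087933-55088147, plus strand, in the direction of Hspe1): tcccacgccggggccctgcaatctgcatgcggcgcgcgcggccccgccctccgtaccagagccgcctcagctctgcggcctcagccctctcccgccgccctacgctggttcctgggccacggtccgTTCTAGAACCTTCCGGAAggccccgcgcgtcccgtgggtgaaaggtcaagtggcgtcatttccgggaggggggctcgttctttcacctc

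Other genes of mitochondrial folding were Dnaja3 (TID1), a J-domain partner of mortalin, at 23.4 and 22.9 FPKM, and the import-motor genes Dnajc15 at 37.5 and 36.9 FPKM and Dnajc19 at 19.5 and 19.1 FPKM. Dnajc19 overlaps Fxr1 on the opposite strand, and the library kit named in the labels does not mark strand. Trap1, the mitochondrial HSP90, lies outside the naming rule and was at 45.05 and 42.9 FPKM. The unfoldase genes Clpb and Clpx were at 17.8 and 17.3 FPKM and at 15.04 and 14.99 FPKM, and the proteases Lonp1 and Clpp at 33.1 and 30.96 FPKM and at 25.02 and 25.4 FPKM.

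The CCT ring holds 8 different subunits, each once per ring. Without Tcp1 their genes lay close together. The other 7 ran from Cct6a at 96.8 and 95.8 FPKM to Cct5 at 141 and 135 FPKM, a range of 1.46 times in replicate 1 and 1.41 times in replicate 2, with a coefficient of variation across genes of 12.1% and 10.8%. Between them came Cct4 at 113 and 111, Cct7 at 117 and 112, Cct8 at 122 and 117, Cct2 at 124 and 121 and Cct3 at 135 and 128 FPKM. The order of the 8 genes was the same in both libraries. Even so, values overlapped across the libraries between neighbours from Cct2 through Cct8 and Cct7 to Cct4, and between Cct5 and Cct3. Tcp1, which encodes the alpha subunit, stood apart at 219 and 217 FPKM (chromosome 17, 13108567 to 13117933, mm9), 1.78 and 1.83 times the median of the 8. The Tcp1 transcript shares 23.5% of its bases with other annotated genes, and the gene overlaps Mrpl18 (55.3 and 54.1 FPKM) on the opposite strand by 645 bases of the file positions; the part of this in the Tcp1 level was not tested.

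**Figure D3:**
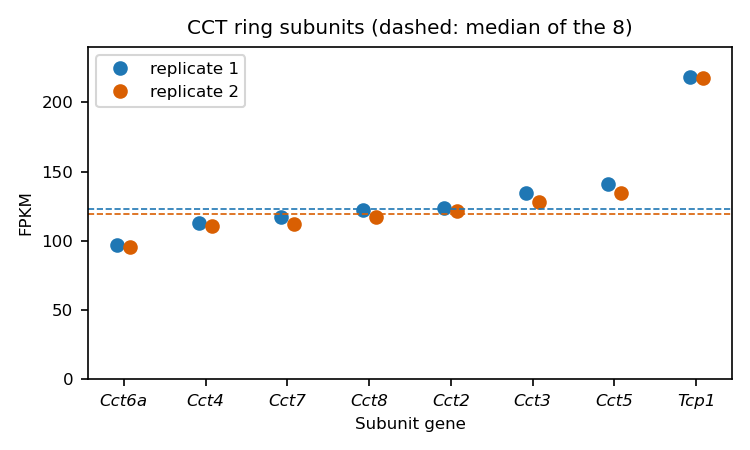
FPKM of the 8 CCT subunit genes in replicate 1 (blue) and replicate 2 (orange), with dashed lines at the median of the 8 in each library; the axis starts at 0. Tcp1 lies near 218 FPKM and the other 7 between 95.8 and 141.3 FPKM.

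The alternative zeta subunit gene Cct6b, known from testis, was at 0.0575 and 0.0674 FPKM. Cct6a was 6.52 ± 0.02 above it on the log2(FPKM + 1) scale, a scale that understates the gap when 1 gene is near 0: with a pseudocount of 0.1 FPKM the ratio was 9.21. Partners of the ring were present as well. Of the prefoldin genes, which hand nascent actin and tubulin to CCT, 5 were found and all 5 exceeded 1 FPKM in both libraries. Pfdn5 was highest at 87.1 and 83.5 FPKM, followed by Vbp1 at 60.4 and 61.5 FPKM and Pfdn1 at 45.7 and 45.4 FPKM. Of 8 CCT and tubulin folding cofactors all were detected, led by Tbca at 142 and 138 FPKM, Txndc9 at 46.6 and 44.4 FPKM and Tbcb at 38.6 and 35.99 FPKM.

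Of the 9 small heat shock protein genes, 8 were detected in both libraries, and mean levels over the class ran from 0.188 to 280.5 FPKM. Cryab (alphaB-crystallin), which guards desmin and titin, was at 284 and 277 FPKM, and Hspb7, the cardiovascular small heat shock protein, at 277 and 275 FPKM (chromosome 4, 140976694 to 140981226, mm9). Their values nearly met, the lower value of Cryab lying just above the higher value of Hspb7. Hspb1 (mouse HSP25) followed at 150.4 and 144 FPKM. Cryab exceeded Hspb1 by 0.93 ± 0.02 and Hspb7 exceeded it by 0.90 ± 0.04 on the log2 scale. Hspb1 shares 51.8% of its transcript with copies, among them Hsp25-ps1 at 5.76 and 10.4 FPKM.

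Hspb2, the neighbour of Cryab on chromosome 9, was at 85.9 and 84.5 FPKM. The genes point away from each other with 403 bases between them in the mm9 positions. In the GENCODE M21 transcripts, however, 32.6% of the longest coding transcript of Hspb2 is shared with Cryab, the higher gene, and 22.6% of that of Cryab with Hspb2, so both levels are uncertain. Hspb8, which works with BAG3 in the clearance of damaged filamin, was at 38.5 and 35.7 FPKM, Hspb3 at 21.3 and 22.4 FPKM and Hspb6 (HSP20) at 8.78 and 8.26 FPKM. Hspb11, which despite its symbol encodes a protein of intraflagellar transport, was at 18.6 and 17.7 FPKM. Hspb9, known from testis, was the lowest at 0.285 and 0.0905 FPKM, and Cryaa, the lens partner of Cryab that the naming rule does not take, was listed at 0. The 200 bases before the Hspb1 start are shown as an example from this class, with 2 copies of GAANNTTC in capitals.
Hspb1 (chr5:135887719-135887918, plus strand): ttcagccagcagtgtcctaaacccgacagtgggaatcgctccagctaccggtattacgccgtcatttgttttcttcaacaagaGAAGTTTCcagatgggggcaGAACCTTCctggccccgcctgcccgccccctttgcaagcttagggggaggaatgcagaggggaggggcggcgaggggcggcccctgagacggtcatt

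J-domain genes were many and moderate. Of 43 genes, 38 were detected in both libraries, 22 had a mean of 10 FPKM or more, and none reached 100 FPKM. The class median was 11.8 and 11.7 FPKM, beside 13.5 and 13 FPKM for HSP70 and HSP110 genes. Among the DNAJA genes, which resemble bacterial DnaJ, Dnaja2 was highest at 53.3 and 52 FPKM, above Dnaja1 at 39.7 and 36.2 FPKM (log2 ratio of Dnaja1 to Dnaja2 -0.46 ± 0.07). Dnaja1 shares 32.1% of its longest coding transcript with other annotated genes, among them Smu1 at 32.1 and 30.8 FPKM on the opposite strand. Dnaja4 was the lowest at 9.48 and 9.05 FPKM. Of its longest coding transcript, 52.6% lies in a sequence also annotated to Wdr61, at 32.3 and 32.05 FPKM on the opposite strand, so its level is uncertain.

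Of 13 DNAJB genes, 10 were detected. After Dnajb11 came Dnajb4 at 26.7 and 25.95 FPKM and Dnajb1 (HSP40), the inducible partner of HSP70, at 20.1 and 20.7 FPKM. Dnajb6, which suppresses aggregation and is mutated in a limb girdle myopathy, was at 11.8 and 11.7 FPKM, below Dnajb1 by a log2 ratio of -0.75 ± 0.04. Dnaja1 exceeded Dnajb1 by 0.86 ± 0.12. Dnajb6 shares 47.3% of its longest coding transcript with other annotated genes and Dnaja1 shares 32.1%, so these ratios are uncertain. Dnajb12 was at 14.9 and 15.1, Dnajb5 at 12.4 and 12.8, Dnajb2 at 8.93 and 8.95 and Dnajb14 at 5.39 and 4.98 FPKM. Dnajb3, a gene without introns known from testis, was at 2.16 and 2.37 FPKM. The others known from testis or cilia were the lowest: Dnajb13 at 0.0769 and 0.0681, Dnajb7 at 0.0263 and 0.0704 FPKM, and Dnajb8 listed at 0 in both libraries.

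The 26 DNAJC genes share little beyond the J domain. The highest was Dnajc7 (TPR2), which passes clients between HSP70 and HSP90, at 65.6 and 66.8 FPKM, followed by Dnajc8, a splicing-associated protein, at 51.4 and 49.02 FPKM and by Dnajc10. Dnajc5 (cysteine string protein) was at 37.4 and 37.7 FPKM and Dnajc9, a histone co-chaperone, at 26.9 and 26.95 FPKM. Dnajc11 was at 22.6 and 22.98, Dnajc14 at 16.7 and 17.1, the ribosome-associated Dnajc2 at 17.2 and 16.2 and Dnajc30 at 15.1 and 14.6 FPKM. Dnajc13 (RME-8), which works on endosomes, was at 9.72 and 8.39 FPKM. The 10 genes Dnajc1, Dnajc4, Dnajc12, Dnajc16, Dnajc17, Dnajc18, Dnajc21, Dnajc24, Dnajc25 and Dnajc27 had means between 3.54 and 7.84 FPKM, and Dnajc28 was at 1.99 and 1.97 FPKM. Under 1 FPKM were Dnajc22 at 0.455 and 0.524 FPKM and Dnajc6, the neuronal auxilin that uncoats clathrin vesicles, at 0.181 and 0.290 FPKM.

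All 6 BAG genes were detected. Bag6, which escorts membrane proteins with a tail anchor, was at 86.3 and 79.9 FPKM, Bag1 at 53.1 and 49.7 FPKM and Bag2 at 23.99 and 23.2 FPKM. Bag3, the partner of HSPB8 whose loss causes myopathy, was at 17.9 and 18.3 FPKM, and Bag6 exceeded it by 2.14 ± 0.10 on the log2 scale. Bag5 was at 12.6 and 12.2 FPKM and Bag4 lowest at 4.39 and 4.33 FPKM. The libraries of no 2 neighbours in this order overlapped.

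Unc45b, the striated muscle chaperone that folds the myosin head, was at 66.05 and 62.8 FPKM (chromosome 11, 82724052 to 82756905, mm9), and the general form Unc45a at 8.52 and 7.79 FPKM. Unc45b exceeded Unc45a 7.76 times in replicate 1 and 8.06 times in replicate 2, a log2 ratio of 2.84 ± 0.03, against a limit of 0.21 for genes of 5 to 20 FPKM. Smyd1, the muscle methyltransferase that partners Unc45b and HSP90 in myosin assembly, was the highest of 18 HSP90 co-chaperone genes at 109 and 109 FPKM. In all, 14 of the 16 pairs compared lay outside the limit for their level, and the exceptions were Hspa8 with Hspa5 and Hspa1b with Hspa1a. The limit measures the spread of 1 gene between the libraries, not the usual gap between 2 different genes. No share over other pairs of genes was taken, so this count is not a result about chaperones.

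Genes that serve the chaperones were listed separately. All 18 HSP90 co-chaperone genes exceeded 1 FPKM in both libraries, with the immunophilin Fkbp4 at 87.6 and 85.3 FPKM and Fkbp8 at 87.3 and 84.7 FPKM after Smyd1, and Stip1 (HOP), the bridge between HSP70 and HSP90, at 79.3 and 75.96 FPKM. All 7 HSP70 partners did so too, led by St13 (HIP) at 61.7 and 58.03 FPKM, the ubiquitin ligase Stub1 (CHIP) at 53.1 and 51.4 FPKM and Hyou1, an exchange factor of the endoplasmic reticulum, at 22.3 and 21.02 FPKM. All 11 endoplasmic reticulum genes were detected with a median of 138.2 FPKM. The collagen chaperone Serpinh1 (HSP47) was highest at 357 and 352 FPKM, then the lectin Calr at 310.4 and 299 FPKM and the disulfide isomerase Pdia3 at 234 and 238 FPKM. The 7 genes of the unfolded protein response were all detected, with Atf4 at 59.9 and 57.9 FPKM, Xbp1 at 46.7 and 45.6 FPKM and Herpud1 at 20.8 and 20.8 FPKM, while the stress marker Ddit3 (CHOP) was at 9.57 and 9.41 FPKM. Of 5 heat shock factor genes only 2 were detected, Hsf1, the master regulator of the heat shock response, at 14 and 14.97 FPKM and Hsf2 at 14.1 and 14.2 FPKM. Hsf3 was at 0.0400 and 0.105, Hsf4 at 0.0451 and 0.0690 and Hsf5 at 0.0120 and 0.0215 FPKM.

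Promoter letters were searched on both strands in windows of 250 bases before to 50 after each RefSeq start. The 72 matched genes have 92 windows. Bag4, Cct4, Cryab, Dnajc2, Dnajc5, Dnajc11, Dnajc12, Dnajc18, Dnajc22, Dnajc30, Hsp90aa1, Hsp90ab1, Hspa8, Hspa9, Hspa13 and Hspb2 had no entry. GAANNTTC was held by 15 of the 72 genes (20.8%), against 9.04% of all symbols in the table. They were Hspd1, Hspb1, Cct2, Hspe1, Dnaja1, Hspb8, Hspb3, Bag3, Hsph1, Dnajb6, Dnaja4, Hspb6, Dnajc27, Hspa1b and Hspa1a. Their median level of 18.1 FPKM was close to the 16.9 FPKM of the matched genes without it, and their levels ran from 0.502 to 149 FPKM. Genes with no entry, from Dnajc22 at a mean of 0.490 to Hsp90ab1 at 847 FPKM, enter neither the medians nor this range. They include Hspa8 and Cryab, also among the highest of the chaperone genes.

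The reversed order TTCNNGAA was held by 8 genes (11.1% against 9.60%). Their median level was 59.2 FPKM, beside 14.7 FPKM for the matched genes without it. The longer element of GAANNTTC and a further GAA, which contains both cores, was held by Hspd1, Hspe1, Hsph1 and Dnajb6 (5.56% against 0.662%). The first 2 of these share the same bases. For the longer element the medians were 46.2 FPKM with it and 17.4 FPKM without. Whether level goes with any of these letters was not tested. The 2 plainer elements were no more frequent than in the whole table: CCAAT was held by 29 genes (40.3% against 41.1%) and TATAAA by 4 (5.56% against 15.7%). CCAAT is contained in the stress element named above. These are matches of letters, not measured binding sites.

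**Figure D4:**
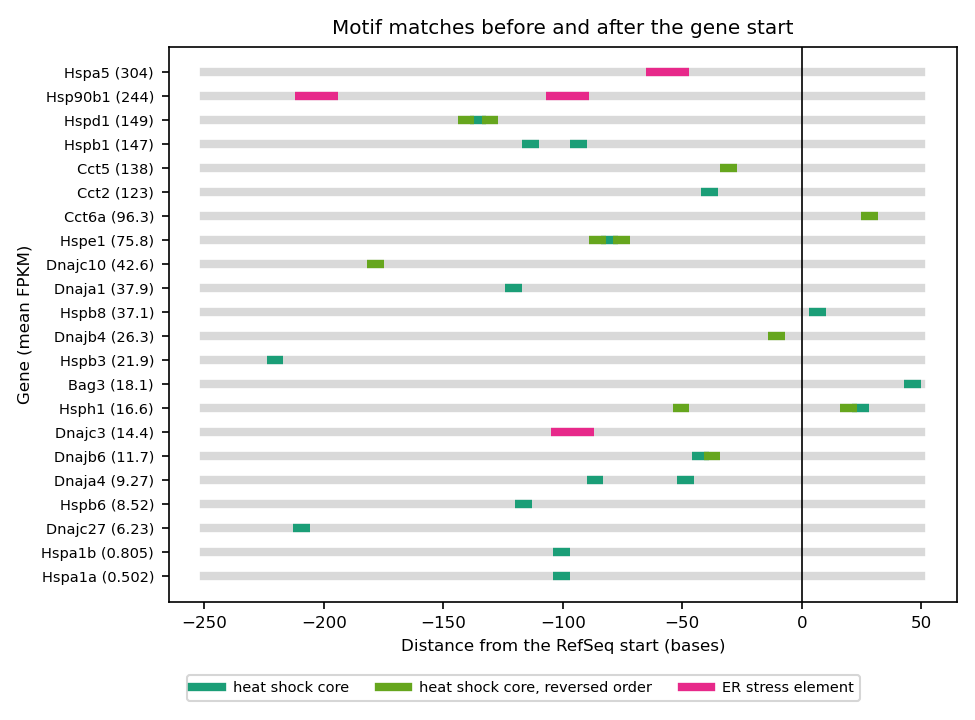
Matches of the heat shock core, its reversed order and the endoplasmic reticulum stress element along promoter windows from 250 bases before to 50 after the RefSeq start, 1 window per gene, ordered by mean FPKM in parentheses. Among genes with a promoter entry, which Hsp90ab1, Hspa8 and Cryab lack, those with a heat shock core run from Hspd1 at 149 to Hspa1a at 0.502 FPKM. The 3 genes with the stress element are Hspa5, Hsp90b1 and Dnajc3.

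The libraries matched closely across these genes. At a mean level from 5 FPKM upward, no chaperone gene differed 1.5-fold or more between them on the log2(FPKM + 1) scale (0 of 71), against 0.265% of protein-coding symbols. With so low a share over all symbols, the count of 0 does not set the chaperone genes apart. Of the 79 genes averaging at least 1 FPKM, none lay beyond the 95th percentile of its range of level. For protein-coding symbols the share is 5.02%, which is fixed by the definition of the percentile. Replicate 2 was the lower for 57 of the 71 genes (80.3%), beside 72% of protein-coding symbols at that mean. The median difference was -0.05 for the chaperone genes and -0.04 for the protein-coding symbols. At a mean of 100 FPKM or more all 17 chaperone genes were lower in replicate 2, against 84.5% of protein-coding symbols. The largest differences at 5 FPKM or more were those of Dnajc13 (9.72 and 8.39) and Dnajc4 (7.99 and 7.05 FPKM). Ratios of FPKM itself exceeded 1.5 for 3 genes near 0: Dnajc6 was 1.60 times higher in replicate 2, Hspb9 was 3.15 times higher in replicate 1 and Dnajb7 2.67 times higher in replicate 2, all at means under 1 FPKM.

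**Figure D5:**
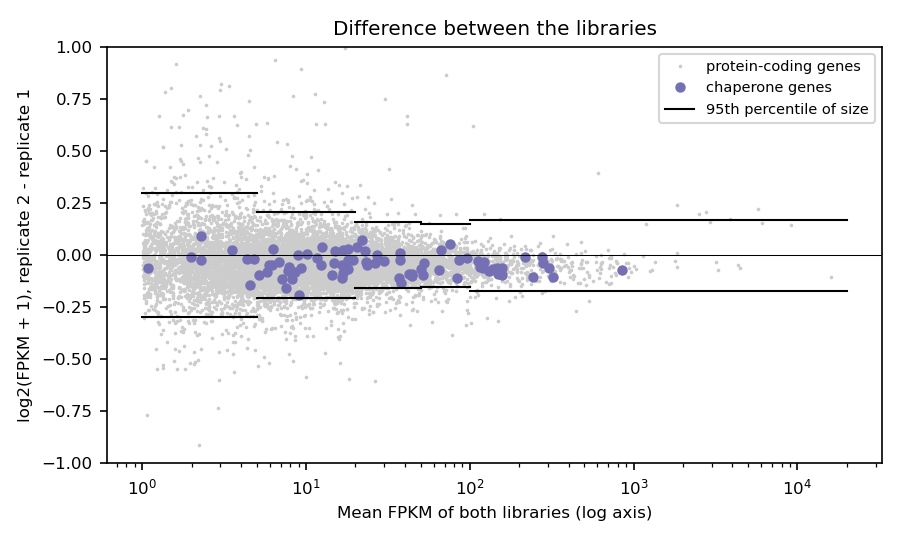
Difference in log2(FPKM + 1) between replicate 2 and replicate 1 against mean FPKM (log axis) for protein-coding genes averaging at least 1 FPKM (grey) and chaperone genes (purple); lines mark the 95th percentile of the size of differences in each range of level, and genes beyond 1 in either direction fall outside the axis. The 79 chaperone genes lie inside the lines.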

How the data were processed

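Total RNA of both heart samples was extracted with Trizol and made into TruSeq RNA v2 libraries with size selection, per the labels' protocols. The authors deposited 1 table of FPKM values per sample. GSNAP, Cufflinks and Cuffnorm and the builds mm9 and hg19 are named in the submitters' processing notes, while the annotation, the strand setting and the treatment of multiply matching reads are not given there. An FPKM listed at 0 may reflect an estimate that failed. No counts were used here, so no count model or counting interval was fitted.

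Rows of 1 symbol were summed among protein-coding rows. Detection meant 1 FPKM or more in both libraries, and differences were taken on log2(FPKM + 1), which understates those of low genes. No p-value is given, since an exact sign-flip test on 2 libraries cannot fall below 0.5 (two-sided). For each pair the log2 ratio was set against the 95th percentile of differences of single protein-coding genes between the libraries, in ranges from 1, 5, 20, 50 and 100 FPKM upward, by the lower gene. All 88 genes may be named, with both values for the 3 highest and the lowest of each class and both genes of each pair. Of the 67 partner genes, the 3 highest of each list and those under 1 FPKM may be named, and others named (Stip1, Ddit3, and the mitochondrial Clpb, Clpp, Clpx, Lonp1 and Trap1) were chosen after their values were seen. Genes, lists and pairs were chosen with earlier results of these data known, and the split by compartment and the search for copies were added after the values were seen. Pfdn6 was not found, leaving 66 partner genes.

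Promoters are RefSeq's, GRCm38.p6, and were matched by symbol. Copies were sought in GENCODE M21 transcripts with BLAST 2.17.0 (98% identity or more over at least 75 bases), with 87 of the 89 rows matched. In the mm9 positions, 19 of the chaperone genes overlap another gene row with a mean of 1 FPKM or more. Python 3.11.15 and pandas 2.3.3 were used, and the 1.5-fold rule for differences between the libraries was tested on simulated data. The simulation took Poisson noise alone, equal depth in both libraries and an assumed number of fragments per FPKM. The libraries themselves differ in depth, so it does not measure how the rule performs on them.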

Additional observations from a re-analysis of the deposited data

How the results depend on the processing

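No paired analysis was possible because both samples belong to 1 group. The number of genes detected in both libraries ran from 70 (a limit of 5 FPKM) to 80 (0.5 FPKM) and was 79 in each library alone. On the log2(FPKM + 1) scale the count of chaperone genes that differed 1.5-fold was 0 at each filter and with replicate 2 rescaled, and it was 0 with a pseudocount of 0.1 FPKM at a mean of at least 5 FPKM. With that pseudocount and no filter, an alternative added after the data were seen, it was 1, Hspb9. The median level of 18.0 FPKM was 18.3 with replicate 2 rescaled by its median ratio, 21.9 over genes averaging at least 1 FPKM, and 17.8 to 18.0 in single libraries. The share of all FPKM, 1.38% on average, was 1.42% of protein-coding rows, 1.62% without mitochondrial genes and globins, and 1.15% without the 10 genes that share at least 50% of a transcript with another gene, an alternative added after the data were seen. The number of pairs outside the limit, 14, was 15 with a pseudocount of 0.1 FPKM or in replicate 2 alone, the addition being Hspa1b with Hspa1a (a log2 ratio of 0.59 and 0.32). The median difference between the libraries moved from -0.05 to -0.01 with replicate 2 rescaled. No ratio of a pair changed sign. Absolute depth is unknown, so the precision of single values is unknown as well.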

Other observations

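Rows that the naming rule leaves out include pseudogenes of these genes, and several were higher in replicate 2 while their parent genes were lower there. Cct3-ps1 was listed at 6.60 and 14.3 FPKM in replicates 1 and 2 (2.17 times), beside Cct3 at 135 and 128 FPKM. Hsp25-ps1, a copy of Hspb1, was at 5.76 and 10.4 FPKM (1.80 times), beside Hspb1 at 150.4 and 144 FPKM. Hspa9-ps1 was at 1.20 and 2.66 FPKM (2.22 times), beside Hspa9 at 161 and 154 FPKM. Over all pseudogene symbols with a mean of 1 FPKM or more, 464 of 548 (84.7%) were higher in replicate 2, with a median log2 difference of 0.43, against 30.7% of 11757 protein-coding symbols and a median of -0.04. Replicate 2 is the shallower library, and the part of depth in this pattern was not tested.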
